A study of Mus musculus with 6 samples.

Results

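Extracellular proteolysis was followed through 9 mouse genes: the plasminogen activator gene Plau and its receptor gene Plaur, the matrix metalloproteinase genes Mmp9, Mmp12, Mmp13 and Mmp14, and the tissue inhibitor genes Timp1, Timp2 and Timp3. They were taken by gene symbol from 54532 gene identifiers, and each symbol matched 1 identifier. The list was chosen by values of the same comparison that is described here, so the difference of each member between the groups is given as a description, with no p-value.

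The 6 libraries came from immortalised bone marrow-derived macrophages, a macrophage line of mouse origin kept dividing in culture. Of these, 3 carried a short hairpin RNA against PGAM5, a mitochondrial protein phosphatase (shPGAM5, genotype PGAM5 KD), and 3 carried one against DRP1, the GTPase that divides mitochondria (shDRP1, genotype DRP1 KD). All 6 cultures had been given interleukin-4 (IL-4) at 10 ng/ml, and RNA was taken at 24 h. The study asked how PGAM5 acts on anti-inflammatory responses. No library without a knockdown or without IL-4 was analysed here, so a gene higher in shPGAM5 and a gene lower in shDRP1 cannot be told apart. The titles number the libraries 1 to 3 without saying whether these are separate cultures or separate hairpins, so the errors measure only the spread between these libraries, which may be technical.

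Urokinase, the product of Plau, binds the receptor encoded by Plaur at the cell surface and cuts plasminogen into plasmin. Plasmin dissolves fibrin and can activate metalloproteinase proenzymes. The metalloproteinases are zinc-dependent enzymes that cut collagens, elastin and other matrix proteins, and TIMP proteins block their active site. Macrophages are known as a source of urokinase, gelatinase B (Mmp9) and macrophage elastase (Mmp12).

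Levels are FPKM, read counts scaled to gene length and library depth. The length that fitted the values was that of all annotated exons of a gene (exonic length), which can exceed that of its transcripts. For Plaur it is 2617 bases against 2009 in the longest transcript, and for Timp1 888 against 883. The gap was wider for Mmp12 (7237 against 4474), Timp3 (8144 against 4722) and Mmp14 (5960 against 3238), whose FPKM may be understated. Comparisons of levels between genes are therefore approximate. Dividing out the exonic length gave back whole reads at depths of 16111282 to 21933545 reads per library. The targeted genes followed the labels. Pgam5 measured 4.91, 5.21 and 4.60 FPKM in shPGAM5 against 17.3, 17.1 and 17.2 in shDRP1 (log2 difference -1.62, SE 0.047, limma adjusted p = 4.5e-06), and Dnm1l, the gene of DRP1, measured 17.2, 18.7 and 17.7 FPKM in shPGAM5 against 8.18, 7.42 and 7.12 in shDRP1 (log2 difference 1.14, SE 0.056, limma adjusted p = 2.9e-05). Library 3 of shPGAM5 stood apart, with a chi-square per gene of 5.61 to 8.05 against the other shPGAM5 libraries, while the remaining pairs within groups gave 2.65 to 3.26. Of the 12 macrophage markers, 11 passed the expression filter and Mertk, a receptor for dying cells, did not. Their summed level was 4378 to 4580 FPKM in shPGAM5 and 5542 to 5571 FPKM in shDRP1. Of the 11 tested, 6 were called lower in shPGAM5, beside 11.7% of all tested genes. The 10 fibroblast markers summed to 0.0891 to 0.174 FPKM in shPGAM5 and 0.130 to 0.222 FPKM in shDRP1, with Col1a2, Dcn, Pdgfra, Thy1 and Postn at 0 in all libraries. The 10 neutrophil markers summed to 0 to 0.215 FPKM in shPGAM5 and 0.0330 to 0.179 in shDRP1, with S100a9, Ly6g, Ngp, Ltf, Mmp8 and Cxcr2 at 0. Osteoclast markers summed to 120 to 126 FPKM in shPGAM5 and 176 to 180 FPKM in shDRP1, where 5 of 8 were tested, Ctsk was lower and Dcstamp higher in shPGAM5, and Calcr was at 0. The 8 endothelial markers (0.448 to 0.588 FPKM in shPGAM5 and 0.675 to 0.804 in shDRP1, with Emcn and Cldn5 at 0) and 8 T and B cell markers (0.333 to 0.341 FPKM in shPGAM5 and 0.118 to 0.245 in shDRP1, with Cd3e, Cd3g, Cd8a and Ms4a1 at 0) stayed below 1 FPKM in sum. The part of these marker levels in the differences below was not tested. In bulk RNA, fewer cells of a type and less RNA per cell cannot be told apart.

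Sequence before the start site was held in RefSeq (build GRCm38.p6) for 7 of the 9 members, all but Mmp9 and Plau. Of these 7, 3 sequences are shown: Timp1, the member with the largest difference, Plaur, the one that was lower in shPGAM5, and Mmp13, which was near 0 in both groups. Each is the 250 bases before the annotated start, 5′ to 3′, all on the plus strand. They lie at chrX:20869916-20870165 (Timp1), chr7:24462233-24462482 (Plaur) and chr9:7272264-7272513 (Mmp13). Capitals mark TGANTCA, the core motif of AP-1 factors, and GGGCGG, that of SP1, on either strand.
Timp1: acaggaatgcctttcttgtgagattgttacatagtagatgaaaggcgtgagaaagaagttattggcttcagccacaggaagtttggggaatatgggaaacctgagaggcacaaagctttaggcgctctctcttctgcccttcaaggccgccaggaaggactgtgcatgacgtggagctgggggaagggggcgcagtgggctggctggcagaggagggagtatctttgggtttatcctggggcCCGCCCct
Plaur: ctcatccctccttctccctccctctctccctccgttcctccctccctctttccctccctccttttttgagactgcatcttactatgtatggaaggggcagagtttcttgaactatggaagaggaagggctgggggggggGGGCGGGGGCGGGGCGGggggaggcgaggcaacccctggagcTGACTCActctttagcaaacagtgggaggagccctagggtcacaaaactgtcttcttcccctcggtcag
Mmp13: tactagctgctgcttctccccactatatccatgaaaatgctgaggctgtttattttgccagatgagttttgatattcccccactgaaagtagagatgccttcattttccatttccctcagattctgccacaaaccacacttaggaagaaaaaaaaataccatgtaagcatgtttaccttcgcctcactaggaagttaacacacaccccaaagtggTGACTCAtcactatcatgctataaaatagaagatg
Counted from the start base as 0, the AP-1 letters stood at -69 to -63 in Plaur and at -35 to -29 in Mmp13, and overlapped no SP1 letters. Including a second start site of Mmp12, 3 of the 7 members held TGANTCA, which occurred in 6.75% of all 32851 such windows. GGGCGG occurred in 5 of the 7 and in 32.7% of all windows, and GAGGAA, a core motif of the macrophage factor PU.1, in 2 of the 7 (Mmp12 and Plaur) and in 23.3% of all windows. The AP-1 letters were thus found both in Plaur, an abundant member, and in Mmp13, near 0. The shares over all windows are of single windows, while Mmp12 was counted over both of its windows. Counts and shares are therefore unlike measures, and no excess is read from them.

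Plau was the most abundant member in shPGAM5 and 2.08-fold higher there than in shDRP1. It lies on chromosome 14 (20836660 to 20843385, plus strand, mm10). The libraries gave 46.5, 44.1 and 49.3 FPKM in shPGAM5 against 21.8, 21.7 and 23.7 FPKM in shDRP1, which rest on 5796 reads in shPGAM5 and 2968 in shDRP1. All shPGAM5 libraries lay above all shDRP1 libraries, with means of 46.6 ± 2.59 FPKM in shPGAM5 and 22.4 ± 1.10 in shDRP1 (SD, n = 3 each) and a log2 difference of 1.03 (SE 0.052). The mean of Plau exceeded that of 88.1% of the tested genes in shPGAM5 and of 75.6% in shDRP1. Values after ± are SDs over 3 libraries throughout. Differences here and below are shPGAM5 minus shDRP1 on the log2(FPKM + 1) scale, which understates changes of low genes.

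Plaur, the urokinase receptor gene on chromosome 7 (24462484 to 24475968, plus strand), went the other way by a small margin. Its levels were 19.8, 19.7 and 22.0 FPKM in shPGAM5 against 23.6, 24.2 and 24.4 FPKM in shDRP1. Library 3 of shPGAM5 came closest to the shDRP1 range, and the groups did not overlap. The means were 20.5 ± 1.27 FPKM in shPGAM5 and 24.0 ± 0.41 in shDRP1 (SD, n = 3 each), 1.17-fold lower in shPGAM5 (log2 difference -0.22, SE 0.047). Its difference was -0.27 without library 3 of shPGAM5. Its call was lost without library 2 or library 3 of shDRP1, where the differences were -0.22 and -0.21.

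On the FPKM scale the pair had a different order in the groups. Urokinase transcript stood 2.34, 2.24 and 2.24 times as high as receptor transcript in the shPGAM5 libraries, and 0.927, 0.897 and 0.971 times as high in the shDRP1 libraries. In every shDRP1 library Plaur exceeded Plau, although the ranges of both genes over the 3 libraries overlapped, and in every shPGAM5 library Plau exceeded Plaur. Both genes were chosen on this comparison, so nothing is read from the separation of the ratio. Its size is approximate, because it compares levels between genes.

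**Figure D1:**
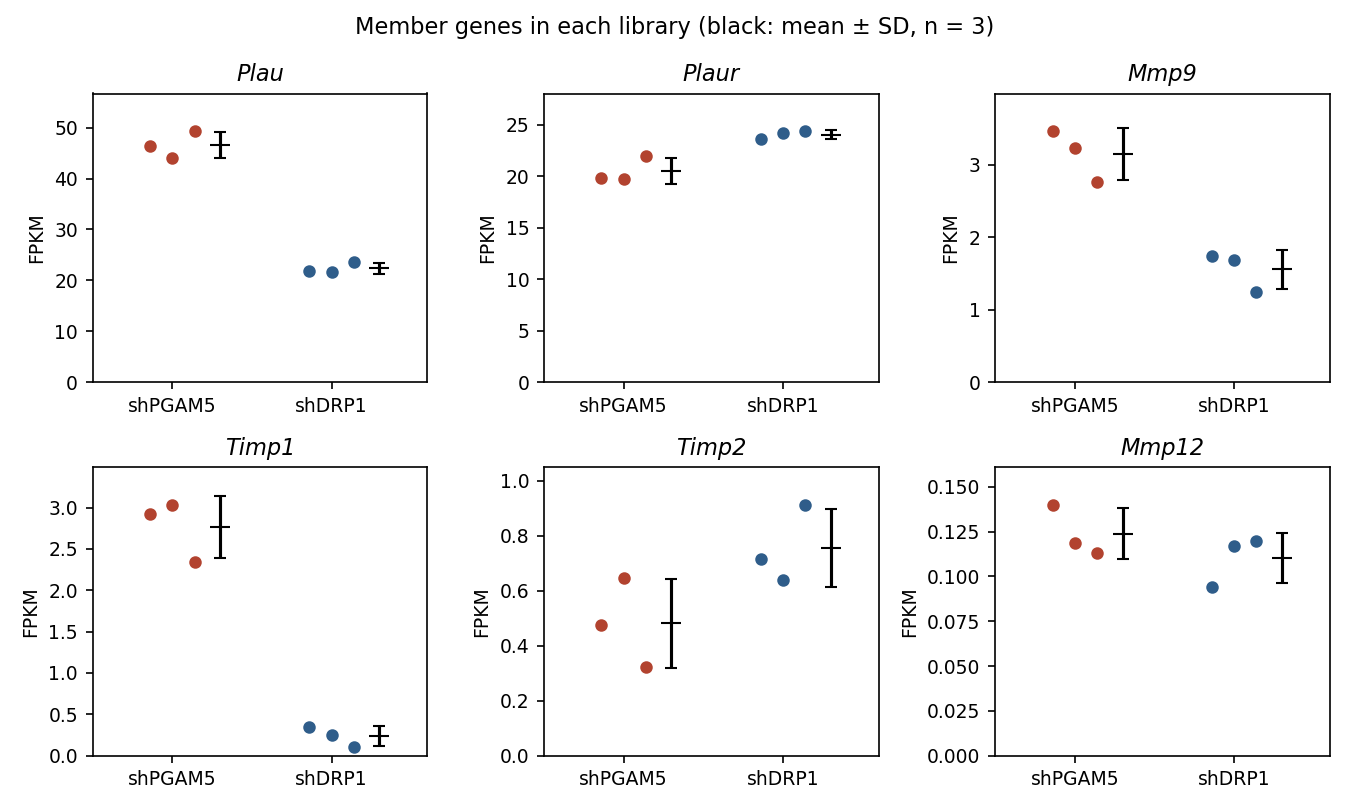
FPKM of 6 member genes in each library, shPGAM5 left and shDRP1 right, 1 point per library, with mean ± SD in black. Plau, Mmp9 and Timp1 lay higher in every shPGAM5 library, Plaur lay lower, and Timp2 and Mmp12 overlapped between the groups.

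Among the metalloproteinases, Mmp9 was the only member that passed the expression filter, a mean of at least 1 FPKM over the 6 libraries. This gene of gelatinase B lies on chromosome 2 (164940780 to 164955850, plus strand). It measured 3.47, 3.24 and 2.76 FPKM in shPGAM5 and 1.74, 1.69 and 1.25 FPKM in shDRP1, from 584 reads in shPGAM5 and 302 in shDRP1. Every shPGAM5 library exceeded every shDRP1 library, and library 3 was the lowest of its group on both sides. Means of 3.16 ± 0.36 FPKM in shPGAM5 and 1.56 ± 0.27 in shDRP1 (SD, n = 3 each) made it 2.02-fold higher in shPGAM5 (log2 difference 0.70, SE 0.102).

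The genes of macrophage elastase, collagenase-3 and the membrane-bound MT1-MMP had low levels in both groups, with Mmp12 above the limit of 3 reads in every library. Mmp12 (chromosome 9, 7344381 to 7369499, plus strand) measured 0.140, 0.118 and 0.113 FPKM in shPGAM5 and 0.0943, 0.117 and 0.120 FPKM in shDRP1, from 47 reads in shPGAM5 and 45 in shDRP1. The groups overlapped, and the ratio of reads per depth was 1.11 with a 95% counting interval of 0.722 to 1.71 (exact Clopper-Pearson, conditional on the sum of the reads). Mmp13 (chromosome 9, 7272514 to 7283331, plus strand) had 5, 4 and 3 reads in shPGAM5 and 4, 1 and 5 in shDRP1, a ratio of 1.28 with an interval of 0.505 to 3.30. Both intervals hold 1, so no difference in either gene was detectable at this depth. Mmp14 (chromosome 14, 54431612 to 54445364, plus strand) had 0, 2 and 1 reads in shPGAM5 and 0, 1 and 0 in shDRP1, all under the limit of 3 reads, which equals 0.0229 to 0.0312 FPKM for this gene. Intervals and limits cover counting error only.

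The inhibitor gene Timp1 had the largest difference of the members. It lies on chromosome X (20870166 to 20874735, plus strand). Its levels were 2.92, 3.03 and 2.34 FPKM in shPGAM5, from 46, 44 and 38 reads, and 0.349, 0.255 and 0.103 FPKM in shDRP1, from 5, 4 and 2 reads. The groups were far apart, but the shDRP1 side rests on 11 reads in all and library 3 there lay under the limit of 3 reads. Means were 2.76 ± 0.37 FPKM in shPGAM5 and 0.236 ± 0.124 in shDRP1 (SD, n = 3 each), 11.7-fold higher in shPGAM5 (log2 difference 1.61, SE 0.113), and the ratio of reads per depth had a 95% counting interval of 6.69 to 25.4. Timp1 passed the expression filter only through its level in shPGAM5. The neuronal gene Syn1 spans it on the opposite strand, at 0.0343 FPKM or less, and reads of both strands cannot be told apart because no source used here gives the strand setting.

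Timp2, which blocks metalloproteinases and also helps MT1-MMP to activate the gelatinase A proenzyme, lay below the filter. On chromosome 11 (118301069 to 118355740, minus strand), it measured 0.477, 0.645 and 0.322 FPKM in shPGAM5 and 0.717, 0.639 and 0.913 FPKM in shDRP1, from 97 reads in shPGAM5 and 167 in shDRP1. Library 2 of shPGAM5 exceeded library 2 of shDRP1, so the groups overlapped, at means of 0.481 ± 0.161 FPKM in shPGAM5 and 0.756 ± 0.141 in shDRP1 (SD, n = 3 each; log2 difference -0.25). The ratio of reads per depth was 0.618 with a 95% counting interval of 0.476 to 0.798, which leaves out 1 but covers counting error only. With the filter lowered to 0.5 FPKM Timp2 entered the fit and was not called. Timp3 (chromosome 10, 86300372 to 86349506, plus strand), the inhibitor that binds to matrix and also acts on ADAM proteases, had 1 read in shPGAM5 and 0 in shDRP1, against a limit of 0.0168 to 0.0229 FPKM. The gene Syn3 spans Timp3 on the opposite strand, at 0.0046 FPKM or less in every library. Of the longest Timp3 transcript, 36.7% matched transcripts of Syn3 at 97% identity or more, and reads shared by both genes can be lost from both. No such match was found for the other 8 members.

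Summed over the 3 inhibitors, TIMP transcripts came to 3.40, 3.68 and 2.66 FPKM in shPGAM5 against 1.07, 0.893 and 1.02 FPKM in shDRP1. The 4 metalloproteinase members summed to 3.71, 3.47 and 2.95 FPKM in shPGAM5 and to 1.92, 1.84 and 1.45 FPKM in shDRP1. Both sums were higher in every shPGAM5 library, but in shPGAM5 each was mostly a single gene. Timp1 averaged 2.76 of a TIMP sum of 3.25 FPKM there, and Mmp9 3.16 of a metalloproteinase sum of 3.38 FPKM. Timp2 went the other way, at a mean of 0.481 FPKM in shPGAM5 against 0.756 in shDRP1. The sum of all 23 annotated Mmp genes overlapped between the groups. Mmp9 stood 1.19, 1.07 and 1.18 times as high as Timp1 in shPGAM5, and 4.97, 6.65 and 12.2 times as high in shDRP1, where Timp1 rests on few reads. The ratio of the sums, metalloproteinase over inhibitor, was 1.05 ± 0.091 in shPGAM5 and 1.77 ± 0.32 in shDRP1 (SD, n = 3 each), without overlap. Since the members were chosen on this comparison, nothing is read from the separation of these sums and ratios.

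**Figure D2:**
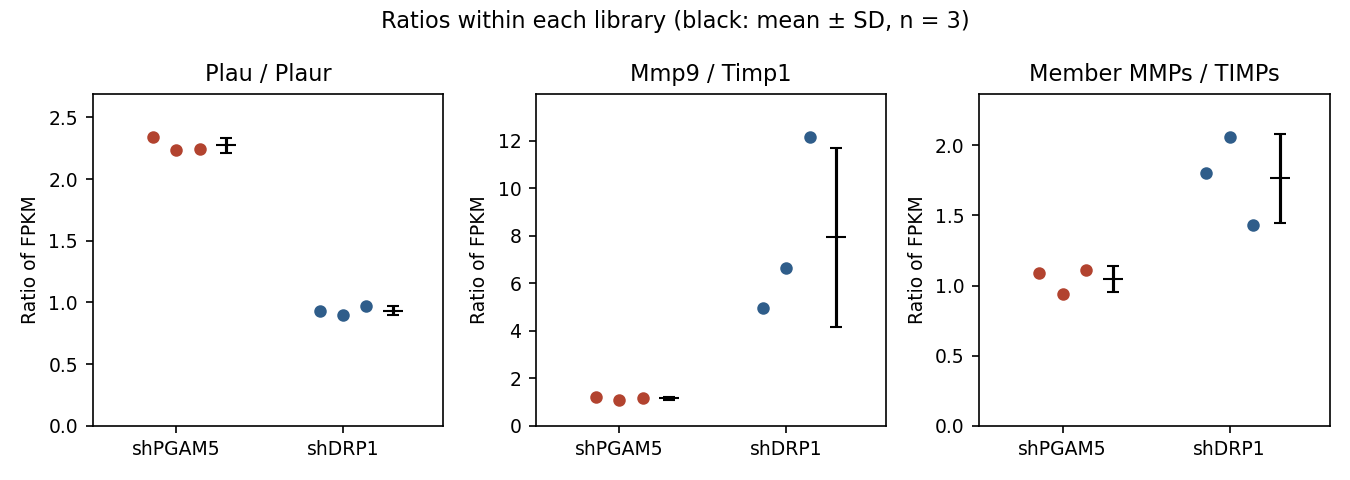
Ratios of FPKM within each library, shPGAM5 left and shDRP1 right, with mean ± SD in black: Plau over Plaur, Mmp9 over Timp1, and the 4 member metalloproteinases over the 3 TIMPs. Plau over Plaur lay at 2.24 to 2.34 in shPGAM5 and under 1 in shDRP1, while the other 2 ratios were lower in every shPGAM5 library.

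On the FPKM scale, the order of levels in shPGAM5 was Plau, Plaur, Mmp9, Timp1, Timp2, Mmp12, Mmp13, Mmp14 and Timp3. Mmp9 and Timp1 overlapped there, as did Mmp14 and Timp3, and all other neighbours in the order were apart. In shDRP1 the order was Plaur, Plau, Mmp9, Timp2, Timp1, Mmp12, Mmp13, Mmp14 and Timp3. Plaur and Plau overlapped there, as did Timp1 and Mmp12, and Mmp14 and Timp3. Apart means only that the values of the 3 libraries did not overlap, without regard to counting error. In shPGAM5 the lowest Mmp12 value was 0.113 FPKM and the highest Mmp13 value 0.105 FPKM, which rests on 5 reads. The order of the genes near the detection limit is therefore not resolved.

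In the fit over all 10634 tested genes, 4 of the 9 members were tested, of which 3 were called higher (Plau, Mmp9 and Timp1) and 1 lower (Plaur) at a limma adjusted p under 0.05. The background was 25.4% of genes called in either direction, 13.8% higher and 11.7% lower. Groups did not overlap for these 4 members and for 43.5% of all tested genes. Since the members were chosen on this comparison, nothing is read from these shares. Without library 3 of shPGAM5, 3 members were called higher and 1 lower, with log2 differences of 0.99 for Plau, 0.77 for Mmp9 and 1.69 for Timp1. Over all genes, 1464 were called higher and 1240 lower, against 971 higher without library 2 of shDRP1 and 825 lower without library 3 of shDRP1.

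The rest of the plasminogen system was described with a list of 16 genes that are no members, of which 6 were tested. In shPGAM5 3 genes rose, 0 fell and the remaining 3 were not called, beside 13.8% higher and 11.7% lower among all tested genes. Words such as rose, increase or fell give the direction of shPGAM5 against shDRP1 throughout, and either group may have changed. The median log2 difference was 0.23 against 0.01 over all tested genes. For the 0 that fell, 0 had an unadjusted p under 0.05 in limma and voom called 0. The heterotetramer of annexin A2 and S100A10 holds plasminogen and its activators at the cell surface, and both of its genes rose. Anxa2 measured 92.3, 91.6 and 99.9 FPKM in shPGAM5 against 56.3, 57.1 and 56.3 FPKM in shDRP1, 1.67-fold higher (log2 difference 0.73, SE 0.039, limma adjusted p = 3.9e-05). S100a10 averaged 68.4 ± 4.30 FPKM in shPGAM5 and 51.8 ± 3.70 in shDRP1 (SD, n = 3 each; log2 difference 0.39, limma adjusted p = 0.0043). Eno1, a glycolytic enzyme gene whose protein can also bind plasminogen, averaged 361 ± 5.15 FPKM in shPGAM5 and 278 ± 6.41 in shDRP1 (log2 difference 0.37, limma adjusted p = 0.00017), and its level is uncertain because 2 other genes match 85.6% of its longest transcript. The plasminogen receptor gene Plgrkt (5.47 ± 0.54 FPKM in shPGAM5 against 6.17 ± 0.44 in shDRP1) and Lrp1, an endocytic receptor (31.2 ± 3.29 FPKM in shPGAM5 against 29.1 ± 0.81 in shDRP1), did not pass. The other 10 genes of the list, among them Plg and the second activator gene Plat, lay at 0.0555 FPKM or less in every library. The 3 calls held without library 3 of shPGAM5, where 4 genes of the list were called higher, beside 1458 of all 10634 tested genes.

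Of the 23 annotated Mmp genes, 15 had at least 1 read and 8 had none. Apart from Mmp9 only Mmp19 was tested. Mmp19, a metalloproteinase that acts on basement membrane proteins, had the highest mean of the family in both groups, with 3.95, 4.96 and 3.45 FPKM in shPGAM5 against 5.57, 4.53 and 5.01 FPKM in shDRP1. The groups overlapped (log2 difference -0.24, limma adjusted p = 0.162), and the call appeared only without library 2 of shPGAM5 (-0.36, limma adjusted p = 0.042). Of the 19 genes besides the members 1 was tested, 0 were called by limma, 0 had an unadjusted p under 0.05 and voom called 0. Gelatinase A (Mmp2) measured 0.460 ± 0.135 FPKM in shPGAM5 and 0.462 ± 0.097 in shDRP1 (SD, n = 3 each). All 23 genes summed to 8.73, 8.97 and 7.45 FPKM in shPGAM5 and 8.40, 7.43 and 7.47 FPKM in shDRP1, which overlapped, unlike Mmp9 alone. A near-identical stretch in other genes covers 27.9% of the longest Mmp19 transcript.

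**Figure D3:**
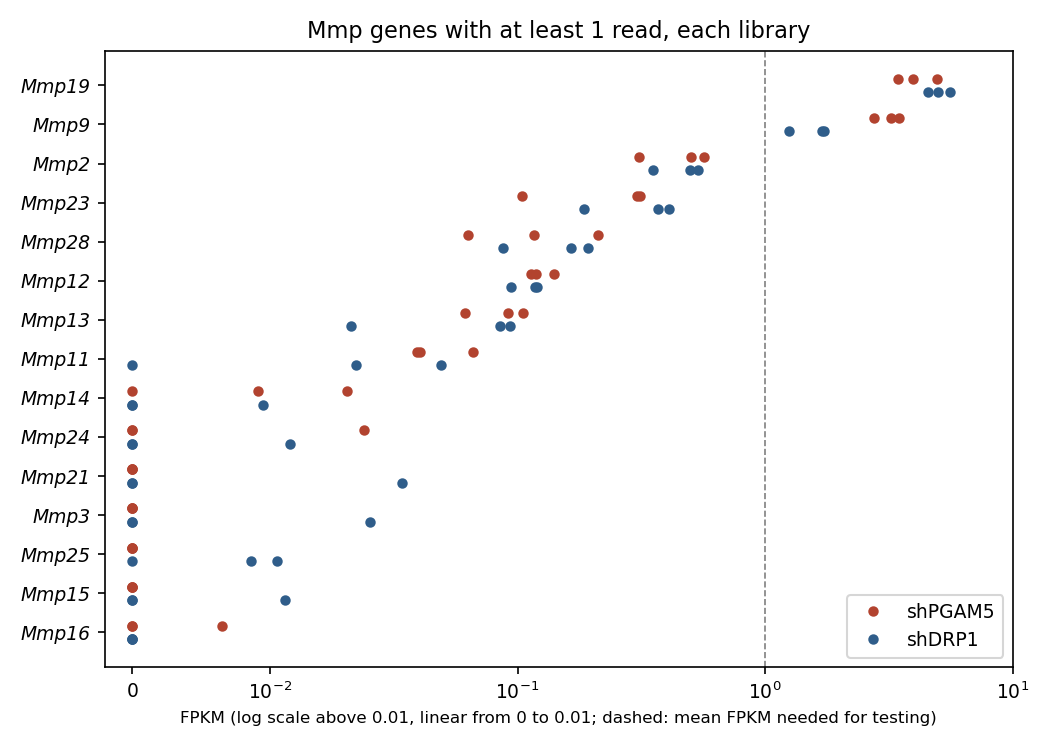
FPKM of the 15 Mmp genes with reads, 1 point per library on an axis that is logarithmic above 0.01, shPGAM5 above shDRP1 for each gene. Mmp19 and Mmp9 lie right of the dashed line at 1 FPKM, and Mmp9 is the one of the pair whose groups are apart.

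Genes that activate, dock or restrain metalloproteinases moved in both directions. That list holds 21 genes, 9 of them tested: 3 rose, 2 fell and 4 were not called (median log2 difference 0.09). Among all tested genes 13.8% were called higher and 11.7% lower. Pcsk7, a proprotein convertase, measured 16.6, 17.7 and 16.3 FPKM in shPGAM5 against 12.7, 12.4 and 13.0 FPKM in shDRP1 (log2 difference 0.39, SE 0.042, limma adjusted p = 0.00078). Bsg, which encodes the metalloproteinase inducer basigin, averaged 219 ± 9.16 FPKM in shPGAM5 against 190 ± 3.38 in shDRP1 (log2 difference 0.20, limma adjusted p = 0.0068), and the tetraspanin gene Cd82 rose by the same 0.20. Cd63, a tetraspanin that binds TIMP-1, averaged 123 ± 9.62 FPKM in shPGAM5 against 148 ± 2.83 in shDRP1 (log2 difference -0.27, limma adjusted p = 0.01). Cd44, a docking site of gelatinase B at the cell surface, averaged 44.5 ± 0.77 FPKM in shPGAM5 against 50.7 ± 0.73 in shDRP1 (log2 difference -0.18, limma adjusted p = 0.0041). Near-identical stretches in other genes cover 11.6% of the longest transcript of Pcsk7 and 16.1% of that of Cd63. Furin, the convertase that activates MT1-MMP, did not pass (25.9 ± 1.63 FPKM in shPGAM5 against 23.2 ± 0.53 in shDRP1).

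The ADAM and ADAMTS metalloproteinases, which TIMP proteins also inhibit in part, split as well. With 7 of 32 genes tested, 2 rose, 3 fell and 2 were not called (median log2 difference -0.07). The background was 13.8% called higher and 11.7% lower. Adamts1, a protease of versican and aggrecan, measured 5.11, 4.93 and 4.76 FPKM in shPGAM5 against 8.91, 7.86 and 8.36 FPKM in shDRP1, 1.70-fold lower in shPGAM5 (-0.66 on the log2 scale, SE 0.055, limma adjusted p = 0.00026). Adam9, a membrane sheddase, rose, with 49.0, 48.6 and 47.3 FPKM in shPGAM5 and 34.3, 35.2 and 34.1 FPKM in shDRP1 (0.47 on the log2 scale, SE 0.030, limma adjusted p = 7.4e-05). Adam10 rose (0.18), while Adam8 (-0.28) and the TNF sheddase gene Adam17 (-0.20) fell. For each of these 5 called genes the groups did not overlap, which also held for 43.5% of all tested genes. Other genes share near-identical stretches with 6.96% of the longest Adam17 transcript.

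Most genes of matrix proteins had low levels, as 51 of 56 lay below the filter. Among the 5 above it, 1 rose, 0 fell and 4 were not called (median log2 difference 0.13). Over all tested genes, 13.8% were called higher and 11.7% lower. For the 0 that fell, limma gave 0 with an unadjusted p under 0.05 and voom called 0. The 1 that rose was Agrn, the gene of the proteoglycan agrin, averaging 1.33 ± 0.22 FPKM in shPGAM5 and 0.764 ± 0.014 in shDRP1 (SD, n = 3 each; 0.39 on the log2 scale, limma adjusted p = 0.019). Agrn passed the expression filter only through its level in shPGAM5, which favours a difference, and no support is drawn from its call. Its call was lost without library 2 of shPGAM5, at a log2 difference of 0.32, and without library 1, 2 or 3 of shDRP1, at 0.39, 0.40 and 0.40 (limma adjusted p of up to 0.057). Spp1, which encodes the secreted matrix protein osteopontin, was the most abundant gene of the list at 2458 ± 95.2 FPKM in shPGAM5 and 2485 ± 39.9 in shDRP1 (SD, n = 3 each) and did not pass.

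Integrins bind matrix and partner with the urokinase receptor. With 11 of 26 integrin genes tested, 5 rose, 2 fell and 4 were not called (median log2 difference 0.16). The shares over all tested genes were 13.8% higher and 11.7% lower. The largest increases were Itgb7 (31.3 ± 1.42 FPKM in shPGAM5 against 20.1 ± 1.00 in shDRP1, log2 difference 0.61, limma adjusted p = 0.00023), Itgav, a subunit of vitronectin receptors (8.65 ± 0.69 FPKM in shPGAM5 against 5.54 ± 0.30 in shDRP1, 0.56, limma adjusted p = 0.001), and Itgal (9.46 ± 0.52 FPKM in shPGAM5 against 6.57 ± 0.072 in shDRP1, 0.46, limma adjusted p = 0.00064). Itgb4, the partner of the laminin receptor subunit Itga6, fell (2.97 ± 0.31 FPKM in shPGAM5 against 5.37 ± 0.16 in shDRP1; -0.68, limma adjusted p = 0.00052). For Itgb4, 5.38% of the longest transcript is shared with another gene. Of the subunits of the integrin Mac-1, a partner of the urokinase receptor on leukocytes, Itgb2 fell (-0.19, limma adjusted p = 0.0054) and Itgam did not pass (3.88 ± 0.35 FPKM in shPGAM5 against 4.38 ± 0.26 in shDRP1). Without library 3 of shPGAM5, 6 integrin genes were called higher and 2 lower. The counts were 4 and 2 for the activators and docking partners, 2 and 3 for the ADAM and ADAMTS genes, and 2 and 0 for the matrix genes. Over all 10634 tested genes, 1458 were called higher and 1280 lower in that setting.

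**Figure D4:**
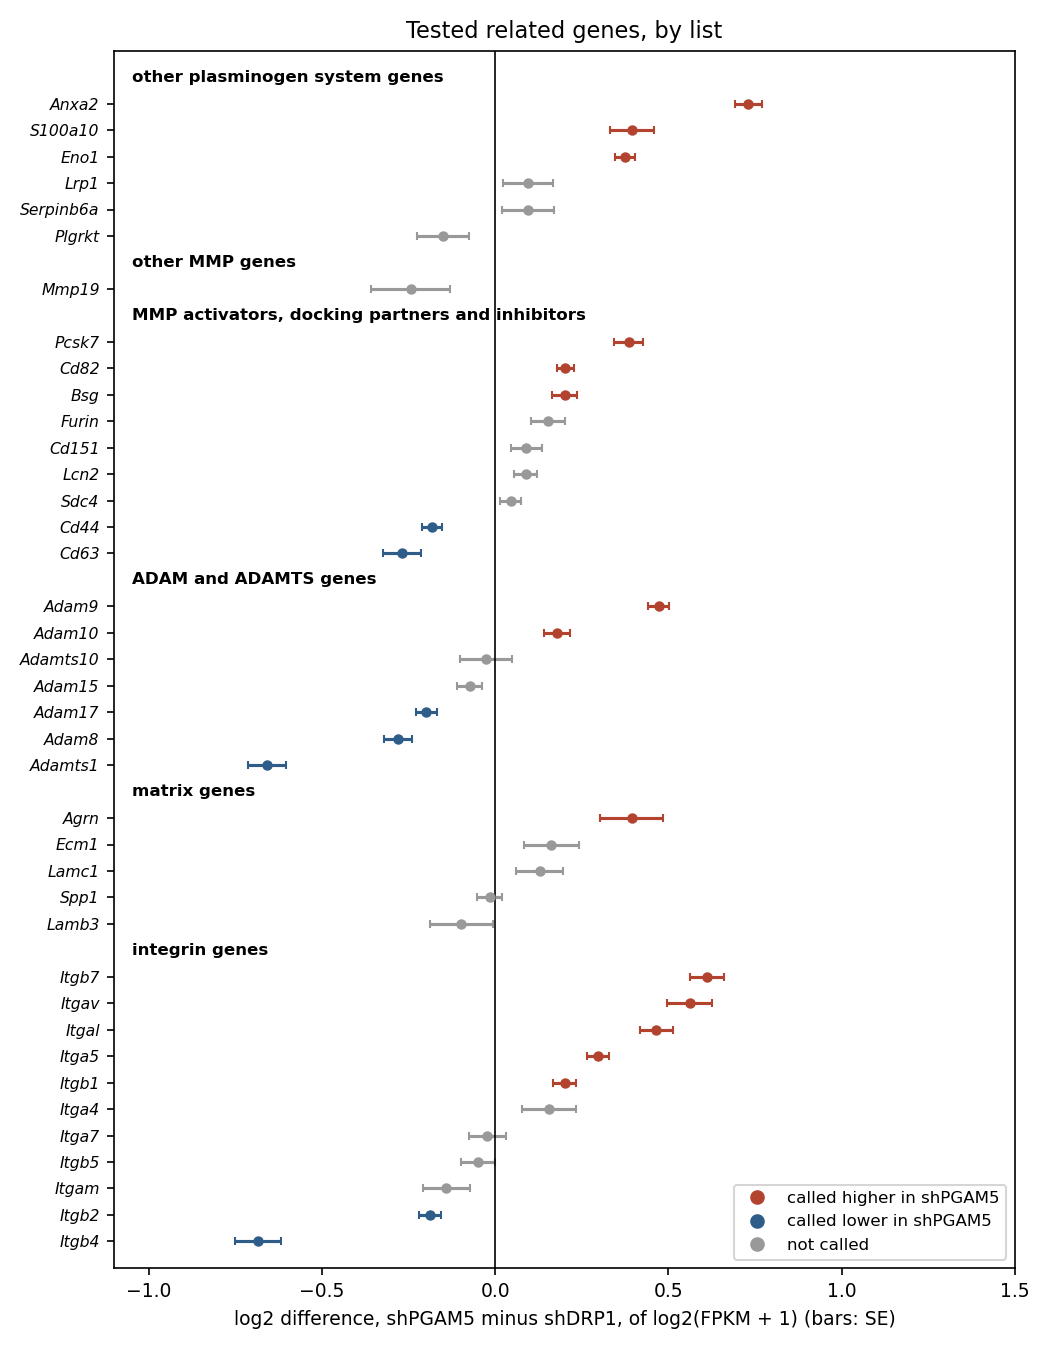
Differences on the log2(FPKM + 1) scale, shPGAM5 minus shDRP1, of the tested related genes in 6 lists, with SE bars. Anxa2 at 0.73 lies farthest to the right, and Itgb4 at -0.68 and Adamts1 at -0.66 farthest to the left.

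Genes next to the members were tested as a separate measure, in a window of 100 kb chosen with the members' values known. Of 19 tested neighbours of Timp1, Mmp9, Plau and Plaur, 2 rose, 0 fell and 17 were not called, beside 25.4% called among all genes. In limma 5 neighbours were higher and 1 lower at an unadjusted p under 0.05, for which no share over all genes is given here. With voom 4 neighbours were called higher and 1 lower, beside 1693 higher and 1489 lower of all 10630 genes in that fit. Those that rose were Cd40, 99.8 kb from Mmp9 (11.9 ± 1.22 FPKM in shPGAM5 against 8.50 ± 0.57 in shDRP1, log2 difference 0.44, limma adjusted p = 0.0064), and Zfp428, 31.0 kb from Plaur (7.17 ± 0.20 FPKM in shPGAM5 against 5.04 ± 0.15 in shDRP1, log2 difference 0.44, limma adjusted p = 0.00063). None of the 4 tested neighbours of Timp1 (Araf, Cfp, Uxt and Elk1) and none of the 3 of Plau (Camk2g, Vcl and Gm30108) passed in limma.

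By Pearson correlation of log2(FPKM + 1) over the 6 libraries, the genes most like Timp1 were Ets2 (r = 0.999), Pafah1b3 (0.998) and Cyfip1 (0.997). Those most like Plaur were Lhpp (0.998), Rdh14 (0.996) and Alkbh1 (0.994). The 6 points form 2 groups, so these values mostly reflect the distance between the groups. Ets2, a transcription factor gene, averaged 164 ± 3.21 FPKM in shPGAM5 and 134 ± 1.45 in shDRP1 (SD, n = 3 each), and Lhpp, a phosphatase gene, 8.20 ± 0.65 FPKM in shPGAM5 and 10.0 ± 0.26 in shDRP1.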

How the data were processed

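RNA was sequenced from 6 libraries, 3 shPGAM5 and 3 shDRP1, grouped by the titles. The authors deposited FPKM values, 1 per gene and library, from poly-A selected RNA per the labels' protocols. The submitters' processing notes name HISAT2 2.0.5, featureCounts 1.5.0-p3 and build mm10, and no source used here gives the annotation or the FPKM formula. Symbols, coordinates and exonic lengths came from GENCODE M21 (54495 identifiers matched, 37 did not). FPKM times length times depth gave whole reads, within 0.02, for 96.1% of values above 0 in each library; these reads give the detection limit of 3 reads. FPKM is scaled to each library's total, so abundant genes shift the others.

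The fit took genes averaging at least 1 FPKM, as log2(FPKM + 1), through limma 3.58.1 under R 4.3.3 (trend, two-sided, Benjamini-Hochberg over 10634 genes, threshold 0.05). The steps were run on simulated data with the same fixed dispersion for every gene and no outlying library. That run does not give the error rate in these libraries. An exact permutation test of 3 against 3 libraries cannot give a p below 0.1 and was not used. The members and lists were chosen with earlier results of these data known. Named are the members, the targeted genes, up to 4 called genes per list with the largest differences (or its most abundant gene), and the genes most like 2 members; further genes were picked with their values in view. Near-identical transcripts were searched with blastn 2.17.0 (97% identity over at least 100 bases). The search does not separate copies elsewhere in the genome from genes that overlap at the same place, such as Timp3 and Syn3. The 14 alternatives were another pseudocount, 2 filters, a replicate block, no trend, quantile normalization, median centring, voom on the recovered reads, and each library left out in turn. Some genes of the lists are not reported here.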

Additional observations from a re-analysis of the deposited data

How the results depend on the processing

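Over 13 alternatives on the FPKM scale the log2 difference of Timp1 was 1.53 to 3.16, of Mmp9 0.61 to 0.98, of Plau 0.99 to 1.06 and of Plaur -0.27 to -0.19, the upper ends for Timp1 and Mmp9 at a pseudocount of 0.1. The members were chosen on this comparison, so these ranges describe the settings and give no support. The related genes named outside the rule for named genes, the neighbours and the genes most like a member were not recomputed one by one. Leaving out 1 library at a time gave 971 to 1458 genes higher and 825 to 1280 lower over all genes, 0 to 1 member lower, 0 to 1 other Mmp gene lower and 0 to 2 matrix genes higher. Without the expression filter 2 matrix genes were higher. The cause of these changes was not tested.

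Libraries of the same number did not deviate together (correlations of deviations from the group means 0.021, 0.031 and -0.00034), so the numbers were not taken as pairs. With the replicate block 1161 genes were higher and 972 lower, 3 members were higher and 1 lower, and the counts of all 6 related lists were those of the unblocked fit. Depth limits Timp3, Mmp13 and Mmp14, each with 5 reads or fewer per library, and the shDRP1 level of Timp1.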
